A study of Rattus norvegicus with 6 samples.

Results

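The C/EBP transcription factors and a set of acute phase genes were followed in rat rheumatoid arthritis fibroblast-like synoviocytes (RA-FLS, the fibroblasts that line the joint) given TNF-α with or without emodin (EMO), an anthraquinone of rhubarb. The genes were taken from the deposited count table by symbol. They were Cebpa, Cebpb, Cebpd and Cebpg of the C/EBP family, and Lcn2, Ptx3, Hp, Chi3l1, Serpina3n and Tnfaip6 among the acute phase genes. A row was found for 9 of the 10 symbols among the 34156 genes of the table, and all 9 passed the filter on low counts, Ptx3 and Chi3l1 only through the TNF-α group. Serpina3n was not analysed here.

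Messenger RNA was sequenced from 6 cultures of wild-type (WT) cells whose labels give rheumatoid arthritis as the disease state. The TNF-α group (3 libraries) received 10 ng/mL TNF-α, and the TNF-α+EMO group (3 libraries) received 10 ng/mL TNF-α together with 80 μmol/L EMO. Both groups therefore carried TNF-α, and the values below say what differed when EMO was added to it, not how the genes respond to TNF-α itself. The cells had been passaged before treatment, and all labels give day 5, whereas the study's methods describe a shorter treatment. Neither source names a vehicle in the TNF-α group. The study's methods speak of 3 biological replicates per condition, but neither source says what separated them. The p-values therefore measure the spread between these cultures, which may be technical.

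C/EBP proteins are basic leucine zipper (bZIP) factors that bind DNA as pairs. C/EBPβ and C/EBPδ are induced by inflammatory cytokines and drive acute phase genes together with NF-κB and STAT3, C/EBPα is best known from differentiation and growth arrest, and C/EBPγ, which lacks a strong activation domain, pairs with the other family members and with ATF4. Acute phase genes encode secreted proteins that rise in inflammation, mainly from the liver, but synovial fibroblasts also make several of them, among them PTX3, the TNF-stimulated protein TSG-6 (Tnfaip6) and the cartilage glycoprotein YKL-40 (Chi3l1).

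With EMO, 3 of the 4 C/EBP mRNAs were lower and Cebpg was higher, and 4 of the 5 acute phase genes fell while the groups overlapped in Lcn2. A gene was called changed when its adjusted p was under 0.05 in edgeR's quasi-likelihood test and its absolute log2 fold change was over 1, positive values being higher with EMO. By this rule Cebpa, Cebpd, Ptx3, Hp, Chi3l1 and Tnfaip6 fell, Cebpg rose, and Cebpb and Lcn2 were not called. These 6 lower and 1 higher of 9 genes stand beside 27.8% lower and 19.5% higher among the 13614 genes tested, and Ptx3 and Chi3l1, which entered only through the group where they are high, could only come out lower. Their median log2 fold change was -1.92, against -0.010 over all genes tested. By adjusted p alone 8 of the 9 genes differed, against a background of 80.9%, so a low p was common in this comparison and the sizes below say more than the calls. The 3 TNF-α+EMO libraries all lay below the 3 TNF-α libraries in 7 of the 9 genes (42.5% of all genes tested) and all above them in 1 (40.3%). Ptx3 and Chi3l1 are among the 7.

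**Figure D1:**
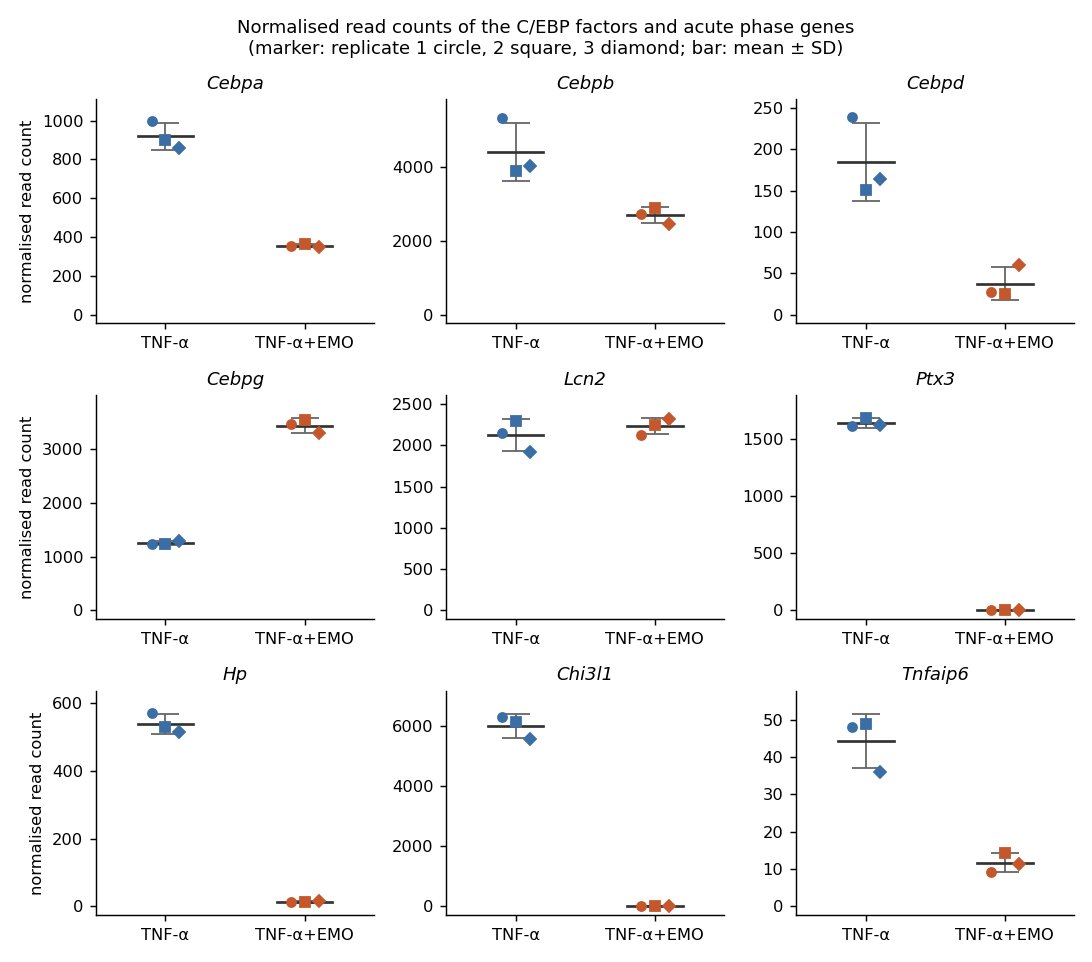
Normalised read counts (vertical axis, from 0, scaled to each gene) of the 9 genes in the 3 TNF-α libraries (blue) and the 3 TNF-α+EMO libraries (orange); horizontal bars are means and whiskers SD. Lcn2 is the gene whose groups overlap, Cebpg is the gene that is higher with EMO, and Ptx3 and Chi3l1 lie at 3 counts or fewer in every TNF-α+EMO library.

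The libraries held 16813322 to 17794455 counts on genes, and the 9 genes together took 0.0976% to 0.111% of them in the TNF-α group and 0.0469% to 0.0511% in the TNF-α+EMO group. The fibroblast label was checked against 13 markers, of which 12 had a row and 8 were tested. Col1a1, Vim, Pdgfra, Pdgfrb and Cdh11 were abundant in the TNF-α libraries, whereas Thy1 reached at most 7 counts, Prg4 at most 4 and Pdpn at most 1 in any library, and Cd248 had none. The summed normalised count of the fibroblast markers was 188738 to 209220 in the TNF-α group and 35128 to 37805 in the TNF-α+EMO group. Of the 8 tested markers 6 were lower and 1 (Dcn) higher, beside 27.8% and 19.5% of all genes tested, and Fap, Lum and Dcn passed the filter through a single group. These markers thus moved with the groups along with the C/EBP and acute phase genes. Their part in the results was not tested, and in such bulk samples fewer cells of a type and less RNA per cell cannot be told apart. In other cell types that make acute phase mRNA, several defining markers were near 0 in all libraries: Alb of hepatocytes had at most 1 count and Apob none, Ptprc and Tyrobp of macrophages had at most 1 and none, and Mpo, Ltf, Csf3r and Prtn3 of neutrophils had none. Of the macrophage markers, Itgam was called higher with EMO, with 1, 0 and 0 raw counts under TNF-α against 12, 10 and 14 under TNF-α+EMO, where Itgax lies across it on the same strand with up to 1763 counts, and Cd68 was higher by adjusted p alone (log2 fold change 0.75). Their part in the results was not tested either. The summed lists were 1005 to 1086 against 2515 to 2562 for hepatocyte markers (almost all Tf), 159 to 188 against 265 to 286 for macrophage markers (mostly Cd68), 55.5 to 82.9 against 24.6 to 45.8 for neutrophil markers (mostly Camp), 70.2 to 76.5 against 16.3 to 22.7 for endothelial markers, and 9950 to 10807 against 1984 to 2333 for epithelial markers (almost all Krt8, with Epcam at 0), TNF-α first.

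Cebpb (ENSRNOG00000057347, chromosome 3, 164424515 to 164425910, plus strand, as deposited), the inflammatory activator of the family, was its most abundant mRNA per kilobase of gene length in both groups, although Cebpg had more normalised counts with EMO. Its normalised counts, which are counts scaled to a common effective library size, were 5322, 3878 and 4012 under TNF-α against 2731, 2886 and 2458 under TNF-α+EMO. No TNF-α+EMO library reached the lowest TNF-α library, and TNF-α replicate 1 stood above its own group. The means were 4404 ± 798 and 2692 ± 217 (SD, n = 3 each), a difference of -0.71 in log2 (standard error 0.12, 95% interval -0.99 to -0.43, adjusted p = 0.000548). The difference passed the p threshold and missed the fold threshold, and without TNF-α replicate 1, on the same tested genes, it was -0.55.

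Cebpd (ENSRNOG00000050869, chromosome 11, 89008008 to 89009146, plus strand), the other cytokine-induced member, was much scarcer and fell further. It was counted at 239, 151 and 165 under TNF-α against 27.8, 24.6 and 60.1 under TNF-α+EMO after normalisation. The groups did not overlap, but replicate 1 stood high in the TNF-α group and replicate 3 stood high in the TNF-α+EMO group. Cebpd dropped from 185 ± 47.5 to 37.5 ± 19.6, a difference of -2.30 in log2 (standard error 0.34, adjusted p = 0.000129). Without TNF-α replicate 1 the difference was -2.07 and without TNF-α+EMO replicate 3 it was -2.82, both on the same tested genes. TNF-α replicate 1 exceeded the next TNF-α library by 1.45 times for Cebpd and 1.33 times for Cebpb, gaps that 0.351% and 0.613% of 10271 compared genes matched or passed. TNF-α+EMO replicate 3 exceeded the next library of its group by 2.16 times for Cebpd, which 0.546% of those genes matched or passed, whereas its Cebpb was the lowest of its group.

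Cebpa (ENSRNOG00000010918, chromosome 1, 91363492 to 91366164, plus strand), the differentiation factor, had normalised counts of 997, 902 and 859 with TNF-α and of 351.7, 363 and 350.4 with EMO added. The TNF-α+EMO libraries lay within a narrow band far under the TNF-α libraries. Cebpa fell from 919 ± 70.3 to 355 ± 7.07, a difference of -1.37 in log2 (standard error 0.09, adjusted p = 5.85e-08).

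Cebpg (ENSRNOG00000021144, chromosome 1, 91287917 to 91296656, minus strand) lies close to Cebpa in the genome and went the other way. Its normalised counts were 1235, 1243 and 1299 under TNF-α against 3472, 3549 and 3290.1 under TNF-α+EMO. The spread within either group was small beside the gap between them. Cebpg rose 2.73-fold, from 1259 ± 34.6 to 3437 ± 133, a difference of 1.45 in log2 (standard error 0.06, adjusted p = 2.25e-09).

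Because a read count grows with the length of a transcript, levels were compared between genes as CPM (counts scaled to a fixed effective library size) per kilobase of deposited gene length. On that scale, the TNF-α group held 183 ± 33.2 of Cebpb, 21.4 of Cebpg, 20.003 of Cebpa and 9.45 of Cebpd, and the Cebpg and Cebpa libraries overlapped. In the TNF-α+EMO group the levels were 112 ± 9.02, 58.5, 7.73 and 1.92 in the same gene order, with no overlap between neighbours. Cebpb thus took 78.1% ± 1.78 of the summed C/EBP level in the TNF-α libraries and 62.1% ± 1.43 under TNF-α+EMO. The share of Cebpg went from 9.30% ± 1.47 to 32.5% ± 0.645, that of Cebpa from 8.61% ± 0.753 to 4.29% ± 0.188, and that of Cebpd from 3.99% ± 0.383 to 1.09% ± 0.634. Each of these 4 shares was apart in every library, with an exact two-sided permutation p of 0.1, the smallest that 3 against 3 libraries allow. A share within a library does not depend on how libraries are scaled to each other.

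Per length, the ratio of Cebpg to Cebpb was 0.119 in the TNF-α group and 0.523 in the TNF-α+EMO group, and that of Cebpb to Cebpa was 9.13 and 14.5. The ratio of Cebpb to Cebpd was 19.7 ± 1.41 and 69.8 ± 32.5, with 33.4 in TNF-α+EMO replicate 3 against 80.02 and 95.9 in the other libraries of that group. Ddit3 encodes CHOP, a C/EBP relative of the endoplasmic reticulum stress response that pairs with C/EBP proteins and keeps them from their usual sites. Its ratio to the summed level of the 4 C/EBP mRNAs was 0.123 ± 0.0192 in the TNF-α group and 9.68 ± 1.15 in the TNF-α+EMO group.

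**Figure D2:**
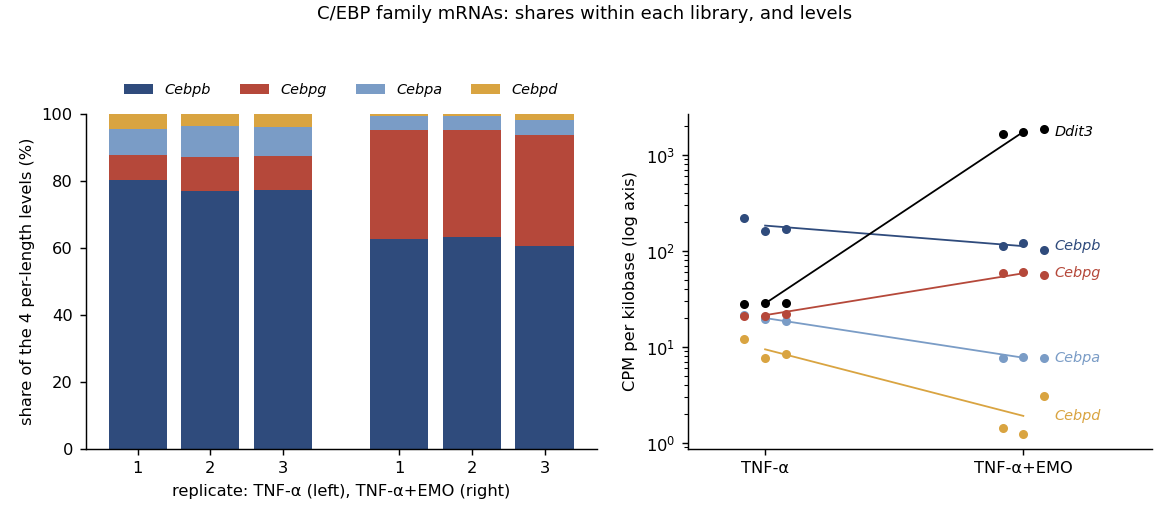
Left, share (%) of Cebpb, Cebpg, Cebpa and Cebpd in their summed per-length level in each library, where the Cebpg share is near 9.30% with TNF-α and near 32.5% with EMO added. Right, per-length levels (CPM per kilobase, log axis) of the same genes and Ddit3, points for libraries and lines between group means, with Ddit3 above Cebpb only in the TNF-α+EMO group.

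A list of 17 C/EBP relatives, bZIP partners and Tribbles proteins was read beside them, of which 14 were tested, with 5 lower, 7 higher and a median log2 fold change of 0.60. That is 35.7% lower and 50% higher, beside 27.8% and 19.5% of all genes tested. Cebpe had at most 1 count in a library, Batf and Hlf had none, and Fos passed the filter only through the TNF-α group. Ddit3 had normalised counts of 444, 455 and 453 under TNF-α against 26021, 27255 and 29602 under TNF-α+EMO, the widest rise of the list. It went up 61.3-fold (log2 fold change 5.94, standard error 0.08, adjusted p = 1.12e-12). Mars1 lies across Ddit3 on the other strand and reached 9616 counts in a library, below the 29061 counts that Ddit3 reached, and since the strand setting of the counting is not known the Ddit3 values are uncertain. Atf4, the factor of the integrated stress response and a partner of C/EBPγ, rose from 4820 ± 34.2 to 33675 ± 1279 normalised counts (log2 fold change 2.80, standard error 0.06).

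The Tribbles proteins are pseudokinases, of which TRIB1 and TRIB2 bring C/EBPα to its degradation and TRIB3 binds ATF4 and CHOP. Trib1 fell from 793 ± 69.6 to 57.4 ± 2.39 normalised counts (log2 fold change -3.79, standard error 0.11) and Trib2 from 343 ± 11.1 to 8.88 ± 2.37 (-5.25, standard error 0.20). Trib3 rose from 221 ± 10.4 to 6398 ± 477 (4.86, standard error 0.08). Thus the Tribbles genes parted, and Cebpa mRNA fell along with Trib1 and Trib2. Nfkbiz, whose product IκBζ works with NF-κB and C/EBP proteins at secondary response genes such as Lcn2, fell from 804 ± 74.4 to 114 ± 11.5 (-2.81, standard error 0.11). Fos (-3.53) and Dbp (-1.33) also fell. Nfil3 (2.09), Jun (1.92), Cebpz (1.42) and Batf3 (1.01) rose. Batf3, at 399 deposited bases and 12 to 44 counts per library, passed the fold threshold by a narrow margin and missed it with every other edgeR scaling tried (0.89 to 0.996) and without TNF-α replicate 2 (0.99), TNF-α replicate 3 (0.72) or TNF-α+EMO replicate 3 (0.80). Tef (-0.96) and Atf5 (0.19) passed the p threshold alone.

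**Figure D3:**
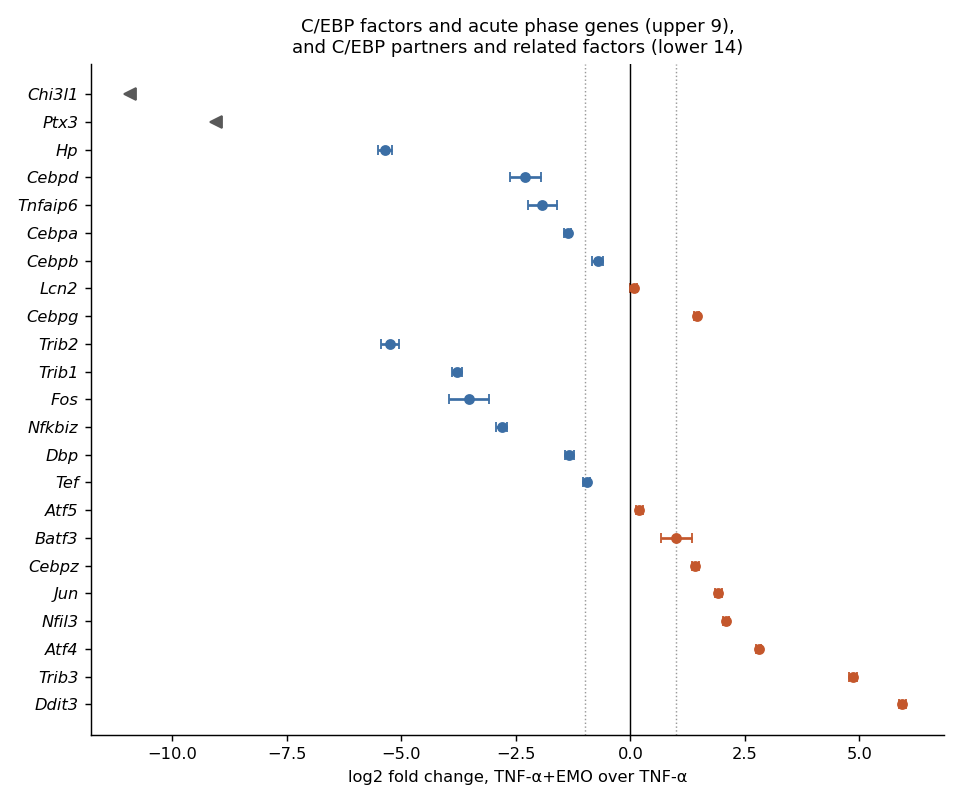
Log2 fold change (horizontal axis, TNF-α+EMO over TNF-α) of the 9 genes and of 14 C/EBP relatives and partners, with bars for the standard error and dotted lines at -1 and 1; blue is lower and orange higher with EMO whether called or not. Triangles stand for genes at 3 counts or fewer in all TNF-α+EMO libraries and are drawn with those libraries set to 3 counts each; Ddit3 lies at 5.94 and Trib2 at -5.25.

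The promoters of the acute phase genes are shown because these genes parted, Ptx3, Chi3l1 and Tnfaip6 falling while Lcn2 was not called. The RefSeq promoter table (assembly GRCr8, another build than that of the deposited coordinates) held 8 of the 10 symbols. It had no entry for Hp and Cebpd, whose promoters were not searched. In the 8, the 250 bases before the annotated start were searched on both strands for 4 motifs. These were TTNNGCAA for C/EBP, GGNNTTTCC for NF-κB, TTCNNNGAA for STAT and TGATGNAA for a composite C/EBP-ATF element. Each sequence runs 5′ to 3′ toward the start of the gene, and capitals mark a C/EBP match. The windows are chr3:36081781-36082030, minus strand, for Lcn2, chr2:152797313-152797562, plus strand, for Ptx3, chr13:48193589-48193838, plus strand, for Chi3l1, and chr3:56911148-56911397, plus strand, for Tnfaip6.
Lcn2: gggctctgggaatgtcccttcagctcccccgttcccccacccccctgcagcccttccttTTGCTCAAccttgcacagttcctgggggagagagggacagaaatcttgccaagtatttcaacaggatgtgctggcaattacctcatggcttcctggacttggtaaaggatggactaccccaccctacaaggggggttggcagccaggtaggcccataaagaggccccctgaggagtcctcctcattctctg
Ptx3: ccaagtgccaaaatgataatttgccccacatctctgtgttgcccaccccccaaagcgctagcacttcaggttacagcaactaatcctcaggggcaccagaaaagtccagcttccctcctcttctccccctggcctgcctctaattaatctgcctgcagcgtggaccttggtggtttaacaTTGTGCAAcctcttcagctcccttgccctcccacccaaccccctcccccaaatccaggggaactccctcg
Chi3l1: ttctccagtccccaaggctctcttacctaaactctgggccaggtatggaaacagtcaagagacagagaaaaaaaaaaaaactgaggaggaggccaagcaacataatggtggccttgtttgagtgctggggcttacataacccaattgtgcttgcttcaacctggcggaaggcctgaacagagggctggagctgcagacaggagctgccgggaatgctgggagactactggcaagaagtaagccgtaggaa
Tnfaip6: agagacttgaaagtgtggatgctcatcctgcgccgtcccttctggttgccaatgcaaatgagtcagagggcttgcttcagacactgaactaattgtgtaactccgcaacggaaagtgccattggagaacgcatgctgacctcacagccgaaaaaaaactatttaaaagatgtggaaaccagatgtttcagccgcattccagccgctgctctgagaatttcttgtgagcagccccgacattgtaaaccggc

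In Ptx3 the C/EBP match lay at -70 to -63 from the start on the gene's strand, and in Lcn2 at -191 to -184 on the other strand. Of the 8 promoters, these were the 2 with a C/EBP match, and 9.22% of all 33469 promoters of the table held it in the same window. Serpina3n alone held the STAT match (7.67% of all promoters), and none of the 8 held the NF-κB (5.19%) or the composite letters (3.40%). Ptx3, which fell to a few counts, and Lcn2, which was not called, thus both carried the C/EBP letters. A match is a stretch of letters, not a measured site, and its absence speaks only of these exact letters in this window. Other spellings of a site, for NF-κB among them, were not searched, so these promoters may hold such sites.

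Chi3l1 (ENSRNOG00000053272, chromosome 13, 51022681 to 51030802, plus strand), which encodes a chitinase-like glycoprotein made by cartilage, synovium and macrophages, was the most abundant of these 5 acute phase genes in the TNF-α group and was all but gone with EMO. It had 6428, 6275 and 5710 raw counts under TNF-α against 1, 0 and 0 under TNF-α+EMO. The ratio of the scaled summed counts was 17556 (95% exact interval 3151 to 693459, for counting error only), with an adjusted p of 1.64e-12. The width of that interval comes from the single count in the TNF-α+EMO group.

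Ptx3 (ENSRNOG00000012280, chromosome 2, 158097843 to 158103653, plus strand) encodes a long pentraxin that marks microbes and binds complement. Its raw counts were 1640, 1728 and 1664 under TNF-α against 3, 2 and 1 under TNF-α+EMO. Every TNF-α library was thus high and every TNF-α+EMO library near 0, with a ratio of 799.6 (367 to 2180.0) and an adjusted p of 4.47e-12. Ptx3 lies across Veph1 on the opposite strand, and Veph1 had at most 5 counts.

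Hp (ENSRNOG00000014964, chromosome 19, 42097995 to 42100804, plus strand) encodes haptoglobin, the scavenger of free haemoglobin. It had normalised counts of 569.9, 530.5 and 514 under TNF-α against 11.3, 12.3 and 15.3 under TNF-α+EMO. The groups were far apart and tight within themselves. Hp fell 41.1-fold, from 538 ± 28.6 to 13.0 ± 2.06 (log2 fold change -5.36, standard error 0.15, adjusted p = 1.14e-10).

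Tnfaip6 (ENSRNOG00000050792, chromosome 3, 37545238 to 37564699, plus strand) encodes TSG-6, a hyaluronan-binding protein that cytokines induce in synovial cells. It was the scarcest gene of the set in the TNF-α group, with normalised counts of 48.1, 48.8 and 36.0 under TNF-α against 9.28, 14.3 and 11.2 under TNF-α+EMO. No library of either group reached into the other. Tnfaip6 fell from 44.3 ± 7.15 to 11.6 ± 2.55 (log2 fold change -1.92, standard error 0.31, adjusted p = 0.000158).

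Lcn2 (ENSRNOG00000013973, chromosome 3, 11414186 to 11417546, minus strand) encodes lipocalin 2, which binds iron-loaded siderophores and is a known target of NF-κB, IκBζ and C/EBPβ. Its normalised counts were 2153, 2297 and 1921 under TNF-α against 2128, 2250.2 and 2313 under TNF-α+EMO. The groups lay across each other. Their means were 2124 ± 189 and 2230.4 ± 94.3, a difference of 0.07 in log2 (standard error 0.07, adjusted p = 0.397). The 95% interval of -0.09 to 0.24 leaves out a change as large as that of any other acute phase gene here, but the sign is not settled: it was -0.042 when libraries were scaled by their totals, a scaling that moved the median of all genes from -0.010 to -0.12.

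The normalised counts of the 5 acute phase genes summed to 10685, 10679.9 and 9655 under TNF-α against 2153, 2279 and 2341 under TNF-α+EMO, 4.58-fold lower. Chi3l1 held 58.0% ± 0.912 of that sum with TNF-α, followed by Lcn2 with 20.5% ± 0.863, Ptx3 with 15.9%, Hp with 5.21% and Tnfaip6 with 0.427%. In the TNF-α+EMO group Lcn2 held 98.8% ± 0.0562 and Chi3l1 0.0160% ± 0.0277. Per length, the order with TNF-α ran from Chi3l1 (191) through Lcn2 (139), Ptx3 (49.5) and Hp (26.5) to Tnfaip6 (1.89), with no overlap between neighbours. With EMO it ran from Lcn2 (146) through Hp (0.639) and Tnfaip6 (0.495), whose libraries overlapped, to Ptx3 (0.0621) and Chi3l1 (0.0109), which overlapped as well.

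Other acute phase genes were mostly too low to test or lower with EMO. Of 30 listed symbols 27 had a row and 11 were tested, with 8 lower, 2 higher and a median log2 fold change of -4.04, or -3.27 with genes at or near 0 set to 3 counts. These counts are 72.7% lower and 18.2% higher, beside 27.8% and 19.5% of all genes tested. C3, Il1rn and Steap4 passed the filter only through the TNF-α group, where they are high, so the test could only find them lower, and the other 8 tested genes were 5 lower and 2 higher. Among those 8, Lbp, Hpx and Serpina1 reached 10 counts in only 1 library of their lower group. They too met the filter because of the group where they are high, TNF-α for Lbp and Hpx and TNF-α+EMO for Serpina1. The classic liver products Crp, Apcs, Orm1, Fga, Fgb and Fgl1 had no count in any library. C3, the central complement component, had 18646, 19607 and 16627 raw counts under TNF-α against 2, 0 and 2 under TNF-α+EMO, a ratio of 13081 (5109 to 48013). Il1rn, the interleukin-1 receptor antagonist, had 717, 675 and 642 against 1, 0 and 1, a ratio of 969.7 (268 to 8012). Both had high counts in every TNF-α library and nearly none with EMO, as Chi3l1 and Ptx3 did.

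Lbp, the lipopolysaccharide-binding protein, fell from 1077 ± 124 to 6.84 ± 4.19 normalised counts (log2 fold change -7.28, standard error 0.22). The copper oxidase gene Cp (-4.47), the haem carrier Hpx (-4.04), the tissue factor gene F3 (-3.27) and the lipopolysaccharide co-receptor Cd14 (-1.10) fell as well, and Steap4 was left without a count when EMO was added, which is at least 4.56-fold lower when 3 counts per library are taken as the floor. Cp shares its locus with Hps3 on the other strand, which reached 654 counts. Serpina1, the antitrypsin gene, rose from 7.81 ± 2.93 to 253 ± 12.5 (4.99, standard error 0.24). Mt1, a zinc-binding metallothionein, rose from 1245 ± 190 to 3645 ± 620 (1.55, standard error 0.15), and its relative Mt2A passed the p threshold alone (0.70). Mt1 lies across Dclre1c, which reached 250 counts, on the other strand. The row named Mt1 is on chromosome 17, 78793336 to 78793724, and its 389 deposited bases leave no intron, whereas Mt2A is on chromosome 19. Whether its reads came from another metallothionein gene was not tested.

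The cytokines that induce acute phase genes and the genes that receive them moved in both directions. Of 23 listed genes 18 were tested, with 8 lower, 2 higher and a median log2 fold change of -0.94, and 13 lower and 3 higher by adjusted p alone. Among all genes tested, 27.8% were lower, 19.5% higher and 80.9% differed by adjusted p alone, so the share by p alone was near the background. Il1a passed the filter only through the TNF-α group. Il6, the main cytokine inducer of the acute phase response, had normalised counts of 53.0, 77.0 and 84.8 under TNF-α against 159.9, 167 and 176 under TNF-α+EMO, so all libraries with EMO were higher. It rose from 71.6 ± 16.6 to 168 ± 8.21 (log2 fold change 1.23, standard error 0.20, adjusted p = 0.00015). Without TNF-α replicate 1, the lowest library, the log2 fold change was 0.98 (adjusted p = 0.000876), short of the fold threshold. On the genes tested with all libraries it stayed past that threshold without this library, so the call then depended on which genes were kept. Lif, of the same cytokine family, rose from 423 ± 35.8 to 1567 ± 184 (1.89, standard error 0.10).

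Of the 9 receptor genes tested, 5 fell, beside 27.8% of all genes tested. Il6st, the gp130 subunit that IL-6 and LIF share, fell from 10255 ± 428 to 2914 ± 197 normalised counts (-1.82, standard error 0.07), and Osmr, the oncostatin M receptor, fell as well (-1.505), while Il6r was at 0.09 (adjusted p = 0.435). Il1r1, the interleukin-1 receptor, fell from 721 ± 61.3 to 96.0 ± 7.44 (-2.91, standard error 0.11), as did its accessory protein gene Il1rap (-1.22) and the TNF receptor gene Tnfrsf1b (-1.69). Il1a had 44, 58 and 54 raw counts under TNF-α against 0, 1 and 0 under TNF-α+EMO. Socs3, a feedback inhibitor that STAT3 induces, fell from 228 ± 31.6 to 63.2 ± 5.58 (-1.85, standard error 0.17), and so did the kinase gene Jak2 (-1.36). Stat3 (-0.97), Nfkb1 (-0.91) and Tnfrsf1a (-0.75) passed the p threshold and missed the fold threshold, and Rela, the p65 subunit of NF-κB, was at 0.10 (adjusted p = 0.13).

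**Figure D4:**
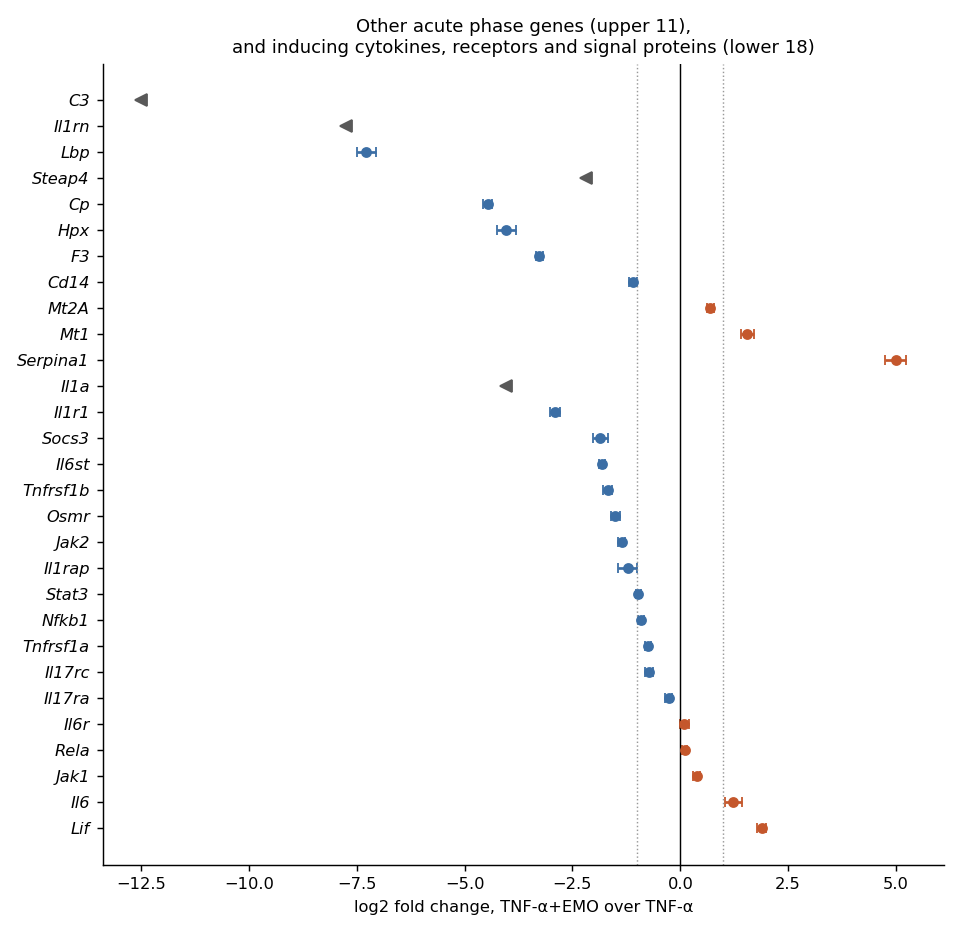
Log2 fold change (horizontal axis, TNF-α+EMO over TNF-α) of 11 other acute phase genes and 18 inducing cytokines, receptors and signal proteins, with standard error bars, dotted lines at -1 and 1, and blue and orange for lower and higher with EMO. Triangles are genes at 3 counts or fewer in all TNF-α+EMO libraries, drawn with those libraries set to 3 counts each; Il6 and Lif lie at 1.23 and 1.89, on the other side of 0 from Il6st, Il1r1 and Socs3.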

How the data were processed

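RNA-seq was done on 6 cultures of rat RA-FLS. The submitters' processing notes name FastQC, Trimmomatic, HISAT2 and the build Rnor_6.0, and the counting program and its strand setting are not given in the sources used here. The authors deposited raw counts per gene without normalization, together with gene positions and the gene length used for per-length levels. Their FPKM values, group means, fold changes and p-values were not used.

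Groups were taken from the sample labels. The 13614 genes that reached 10 counts in 3 or more libraries were scaled by TMM and compared by edgeR 4.0.16 in R 4.3.3 (robust quasi-likelihood fit and F test, Benjamini-Hochberg adjustment over all genes tested). The standard error is the log2 fold change divided by the square root of F. A group with 3 counts or fewer in every library was taken as at the floor of detection, and 95% exact binomial intervals of count ratios cover counting error only, since PCR copies cannot be told from separate molecules. Depth was 16813322 to 17794455 counts per library. With 3 against 3 libraries an exact permutation test cannot go below 0.1, so adjusted p-values rest on the spread that edgeR shares across genes. Libraries of a group were not copies, with a chi-square per gene of 4.72 to 25.2, where sampling noise gives about 1. TNF-α+EMO replicate 3 stood apart, with 25.2 and 16.1 against replicates 1 and 2 of its group. Every other pair within a group gave 4.72 to 6.63.

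Beside the 9 genes, each list's genes named with full values are the up to 3 largest rises and falls among called genes with a mean of at least 100 counts, plus Ddit3, Trib1, Trib2, Nfkbiz and Il6; other genes, Slc22a17 with full values among them, were named after their values were seen. The genes and lists were chosen with earlier results of these data known. The steps were tested on simulated counts with far fewer changed genes than here, evenly raised and lowered. That test therefore does not speak to the scaling or error rate where most genes differ. Alternatives were DESeq2 1.42.0, other scalings, filters and thresholds, a replicate block and leaving out each library. Floor-bound medians and leave-one-out fits on fixed genes were added after seeing the data.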

Additional observations from a re-analysis of the deposited data

How the results depend on the processing

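The counts of the 9 genes, 6 lower and 1 higher, were the same with DESeq2, every other scaling and filter tried, and the replicate number as a block (6 and 1). With a log2 fold change over 2, they were 4 and 0, beside 2255 lower and 809 higher among all 13614 genes tested. Leaving out each library gave 4 to 6 lower, where 4 comes from leaving out a TNF-α library, since Ptx3 and Chi3l1 then have too few libraries for the filter. On the genes tested with all libraries it was 6 throughout. Over all genes, leaving out a library gave 3037 to 3764 lower and 2308 to 2460 higher, of 12666 to 13246 tested. On the fixed 13614 genes, 3728 to 3836 were lower and 2540 to 2682 higher. With the fold threshold at 2, the lists had 4 C/EBP partners higher, 1 other acute phase gene higher, and 2 inducers lower and 0 higher. With no fold threshold, 13 inducers were lower, beside 5642 of all 13614 genes tested. Leaving out each library gave 5 to 8 other acute phase genes lower, 1 to 2 inducers higher, 0 to 2 protein partners higher and 2 to 5 adipocyte genes lower, and on fixed genes these stayed at 8, 2, 2 and 5. With edgeR's own filter 1 protein partner was higher, beside 2639 of 13557 genes tested. Lcn2 turned sign, at -0.042 (adjusted p = 0.604) with library totals and -0.070 (adjusted p = 0.414) without TNF-α replicate 3, and ranged from -0.070 to 0.13 over the fits that left out a library. Without division by length, the shares in the C/EBP sum differed by 33.90 points for Cebpg, -23.58 for Cebpb, -8.20 for Cebpa and -2.12 for Cebpd. With it they differed by 23.18, -15.96, -4.31 and -2.91. The shift follows from the deposited lengths, 3417, 1396, 2673 and 1139 bases in the same gene order. Same-numbered libraries showed little shared deviation (r of -0.00262, -0.00073 and 0.0873), with a mean of 0.028 against -0.014 for libraries of different number. With 3 libraries per group this cannot tell whether the numbers pair them. The replicate block gave 3775 genes lower and 2646 higher, against 3783 and 2659. Genes at 3 counts or fewer have a ratio known only within its counting interval.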

Other observations

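The receptors, ligands and substrates of the proteins that these genes encode were lower or did not pass the test among those with at least 100 counts on average. Of 23 listed genes 22 had a row and 11 were tested, with 6 lower and 2 higher and a median log2 fold change of -1.40. In percent, 54.5% were lower and 18.2% higher, beside 27.8% and 19.5% of all genes tested. Mmp9, the gelatinase that lipocalin 2 binds and shields, fell from 3555 ± 286 to 20.8 ± 1.59 normalised counts (SD, n = 3 each; log2 fold change -7.41, standard error 0.11), while Lcn2 itself was at 0.07. Slc22a17, a lipocalin 2 receptor, fell from 414 ± 60.3 to 81.2 ± 16.4 (-2.35, standard error 0.17). Has2, the main hyaluronan synthase of fibroblasts, whose product TSG-6 and PTX3 help to crosslink, fell from 431 ± 22.2 to 21.8 ± 4.05 (-4.29, standard error 0.16). The scavenger receptor gene Lrp1 fell from 33784 ± 3308 to 3614 ± 77.7 (-3.22, standard error 0.08). Cd44, the hyaluronan receptor, was at -0.05 (adjusted p = 0.531) and Tmem219, a Chi3l1 receptor subunit, at -0.0040 (adjusted p = 0.966). The 2 that rose, Itih2 and Ambp, had at most 20 counts in a library and passed the filter only through the TNF-α+EMO group. Has3 and Fgf2, which were called lower, reached 10 counts in only 1 TNF-α+EMO library, so they met the filter because of the TNF-α group. On the other strand, Has3 (at most 25 counts) lies across Chtf8 (up to 2523) and Fgf2 (at most 53) across Nudt6 (up to 135). Since the strand setting of the counting is not known, their values are uncertain.

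Adipocyte genes under C/EBPα were mostly at or near 0. Of 14 listed genes 13 had a row and 5 were tested. Fabp4, Slc2a4 and Cidec passed the filter only through the TNF-α group, where they are high, so the test could only find them lower, and they say nothing of the list's direction. Pparg and Adipoq had at most 1 count in a library. Scd, a fatty acid desaturase gene, fell from 1609 ± 61.7 to 66.2 ± 13.1 normalised counts (-4.60, standard error 0.12), and Acsl1, an acyl-CoA synthetase gene, from 1535 ± 115 to 429.6 ± 30.3 (-1.84, standard error 0.09).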
